A study of Mus musculus with 3 samples.

Results

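The transcripts described here encode the nuclear-made subunits of the 5 complexes of oxidative phosphorylation in single cells of the mouse subventricular zone. Members were all rows of the count table whose names begin with Nduf followed by a, b, c, s or v and a number, are Sdha, Sdhb, Sdhc or Sdhd, or begin with Uqcr, with Cox and a number from 4 to 8, or with Atp5. The rule found 83 of 16178 genes, of which 37 belong to complex I, 4 to complex II, 8 to complex III, 17 to complex IV and 17 to complex V. It takes names and not functions. Atp5s and Atp5sl, which carry the name of the synthase but are not subunits of it, were therefore counted with complex V. Ndufa4, now placed in complex IV, was counted with complex I, and Cox7a2l, which helps respiratory complexes join into supercomplexes, with complex IV.

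The mitochondrial inner membrane holds a chain of protein complexes that pass electrons from NADH and succinate to oxygen. Complex I takes electrons from NADH, complex II from succinate, which also makes it an enzyme of the citrate cycle, and both hand them to ubiquinone, from which complex III passes them to cytochrome c and complex IV to oxygen. Complexes I, III and IV pump protons as they do so, and complex V, the ATP synthase, makes ATP as protons flow back. Most subunits are encoded in the nucleus. Quiescent neural stem cells are known for a metabolism that leans on glycolysis and fatty acid oxidation, and oxidative phosphorylation rises as they activate.

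The series asked whether autofluorescence, the light a cell gives off with no added dye, tells resting from activated neural stem cells. Untreated male C57BL/6J mice, 8 in each of 3 experiments on separate days, gave cells of the subventricular zone, the stem cell niche along the lateral ventricle, and the labels name no genetic change or treatment. Their ages are not stated in the labels. Cells were enriched by magnetic beads against GLAST, a glutamate transporter of astroglia and stem cells, after myelin had been depleted in 2 of the 3 experiments, and each experiment filled 1 plate of SORT-seq, which tags the 3′ end of each transcript with a molecular identifier, 1 sorted cell to a well. Because the animals of an experiment cannot be told apart, the plate is the replicate. A p-value here measures the spread between plates of the differences between groups, since the plate itself is a block in the fit. Not every cluster of cells could be summed on all 3 plates, and the clusters share 1 estimate of that spread.

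The deposited table held 149 cells, 43, 45 and 61 on plates 1, 2 and 3, with 297573, 413728 and 478504 estimated transcripts. The plates used 86 well positions, 50 of them on 2 or more plates, which is the plate layout and not shared cells. Cluster numbers and autofluorescence were deposited for each cell. The labels call all cells neural stem cells, but by marker genes clusters 0 (42 cells) and 2 (35 cells) were oligodendrocyte-like, with 7 markers of that lineage summing to 76667 and 78682 CPM (transcripts of a gene when those of all genes are scaled to 1000000). Cluster 1 (36 cells) was microglia-like, with 6 markers at 26762 CPM. Cluster 3 (30 cells) was quiescent stem cell or astrocyte-like, with 10 markers at 34133 CPM, and cluster 4 (6 cells) was activated stem cell or progenitor-like, with 8 markers at 10998 CPM. Cluster 4 had 5 of its 6 cells on plate 1, and cluster 3 had 25 of 30 there. Cluster 0 had 1 cell on plate 1.

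Promoters of these genes are known to be rich in binding motifs of a few activators, above all nuclear respiratory factor 1, the ETS family member GABP, and YY1. RefSeq promoters on GRCm38.p6, 250 bases before to 50 after the annotated start, were at hand for 65 of the 83 members and 27025 genes in all. The sequence of nuclear respiratory factor 1 was searched as GCGCA and GCGC with any 1 base between them, on both strands as were the others. It lay in 26.2% of the members' promoters and in 5.19% of all promoters. The ETS sequence CCGGAAG lay in 24.6% against 9.93%, and the YY1 sequence AAGATGGCG in 10.8% against 1.64%. The TATA box TATAAA lay in 9.23% against 15.7%. At least 1 of the first 3 motifs was found in 34 of the 65 members, 2 or more in 6 and none in 31. A match is a run of letters and not a shown binding site. The promoters below belong to 4 members whose transcripts were fewer in microglia-like cells, and they show the range from several motifs to none. Each line gives the 250 bases before the start, read 5′ to 3′ in the gene's direction, with motif matches on either strand in capitals.
Cox6a1: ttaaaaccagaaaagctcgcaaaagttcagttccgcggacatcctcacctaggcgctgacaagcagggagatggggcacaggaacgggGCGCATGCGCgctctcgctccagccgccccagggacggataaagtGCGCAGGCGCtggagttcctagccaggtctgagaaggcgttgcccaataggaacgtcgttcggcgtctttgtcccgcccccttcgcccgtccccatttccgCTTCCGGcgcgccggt
Atp5g2: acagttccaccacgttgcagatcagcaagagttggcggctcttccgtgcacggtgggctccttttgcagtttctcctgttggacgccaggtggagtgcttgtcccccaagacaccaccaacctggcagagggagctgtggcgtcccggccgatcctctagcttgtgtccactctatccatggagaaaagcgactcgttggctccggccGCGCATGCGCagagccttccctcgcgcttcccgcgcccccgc
Ndufb6: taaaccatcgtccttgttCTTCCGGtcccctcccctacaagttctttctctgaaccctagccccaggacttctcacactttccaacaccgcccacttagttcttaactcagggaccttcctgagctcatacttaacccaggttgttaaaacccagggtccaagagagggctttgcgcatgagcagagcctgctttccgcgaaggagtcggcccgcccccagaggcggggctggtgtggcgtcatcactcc
Atp5b: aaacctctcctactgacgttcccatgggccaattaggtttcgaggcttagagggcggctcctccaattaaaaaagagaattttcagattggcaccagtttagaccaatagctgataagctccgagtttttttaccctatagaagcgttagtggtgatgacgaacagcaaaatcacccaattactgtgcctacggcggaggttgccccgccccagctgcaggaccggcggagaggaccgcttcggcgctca
The stretch of Cox6a1 is chr5:115348959-115349208 on the minus strand. It holds the nuclear respiratory factor 1 sequence with first bases 162 and 117 before the start and an ETS sequence 16 before it. That of Atp5g2, chr15:102671048-102671297 on the minus strand, holds the nuclear respiratory factor 1 sequence from 42 bases before the start. That of Ndufb6, chr4:40279422-40279671 on the minus strand, holds 1 ETS sequence 232 bases before the start. The stretch of Atp5b, the most abundant member, is chr10:128083057-128083306 on the plus strand and holds none of the motifs.

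Most respiratory chain transcripts lay well above the median gene. The median member had a mean level over plates of 106 CPM, against 14.8 CPM for the median of all genes, and 74 of the 83 members lay above 20 CPM, as did 7080 of all 16178 genes. Since each transcript is counted once at its 3′ end, these levels are not divided by gene length. Together the members made up 1.21, 0.870 and 0.941% of the transcripts of plates 1, 2 and 3. The highest share was that of plate 1, the plate with most cells of clusters 3 and 4.

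In complex I the most abundant member was Ndufc2, an accessory subunit of the membrane arm, at 484, 179 and 228 CPM on plates 1 to 3. Its level on plate 1 was more than the sum of those on the other plates. Ndufa3 followed at 165, 149.9 and 155 CPM and Ndufb11 at 145, 167 and 144 CPM, both accessory subunits with plates close together. The other detected members of complex I had means between 37.6 CPM, for Ndufa9, and 144 CPM, for Ndufb3.

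Complex II has 4 subunits, all encoded in the nucleus. Sdha, the flavoprotein that oxidizes succinate, stood at 192, 162 and 190.2 CPM. Sdhb, the iron-sulfur subunit, stood at 138, 109 and 66.9 CPM. Of the membrane anchors, Sdhc stood at 124, 106 and 132 CPM and Sdhd at 67.2, 53.2 and 66.9 CPM. Sdhd lay below Sdha and Sdhc on each plate, whereas the ranges of Sdhb and Sdhc overlapped.

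Complex III was led by Uqcrc2, a core protein, at 188, 222 and 194 CPM, and by Uqcrfs1, the Rieske iron-sulfur protein, at 202, 159.6 and 157 CPM. Uqcrq, a small subunit, stood at 131, 126 and 105 CPM, below both on every plate. The lowest was Uqcr11 with a mean of 59.2 CPM.

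Complex IV showed its tissue isoforms most clearly. Cox8a stood at 474, 297 and 263 CPM, Cox6a1 at 390.2, 298 and 312 CPM, and Cox4i1 at 208, 266 and 251 CPM. Their counterparts were nearly absent. The muscle forms Cox6a2 and Cox7a1 and the lung form Cox4i2 each had 1 transcript in all 149 cells, while Cox8c and Cox7b2 had 0. Cox6b1 stood at 225, 135 and 194 CPM, and its testis form Cox6b2 at 16.8, 7.25 and 4.18 CPM. Cox7a2 stood at 108, 102 and 89.9 CPM and Cox7a2l at 90.8, 84.6 and 129.6 CPM, with overlapping ranges. Cox5a at 229, 149.9 and 123 CPM, Cox5b at 215, 123 and 165 CPM, and Cox6c at 252, 162 and 188 CPM also overlapped. The rule found no row named Cox8b.

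Complex V held the most abundant member of all, Atp5b, the catalytic beta subunit, at 636, 348 and 433 CPM. Atp5a1, the alpha subunit beside it in the catalytic head, stood at 444, 235 and 293 CPM. Of the 3 genes that encode the same subunit c of the rotating ring, Atp5g3 was highest at 457, 242 and 259 CPM, followed by Atp5g2 at 282, 186 and 169 CPM and Atp5g1 at 155, 77.4 and 87.8 CPM. That order held on each plate. Of members counted with complex I, Ndufa4 stood at 101, 36.3 and 54.3 CPM, and Ndufa4l2, its relative known from low oxygen, at 0.

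**Figure D1:**
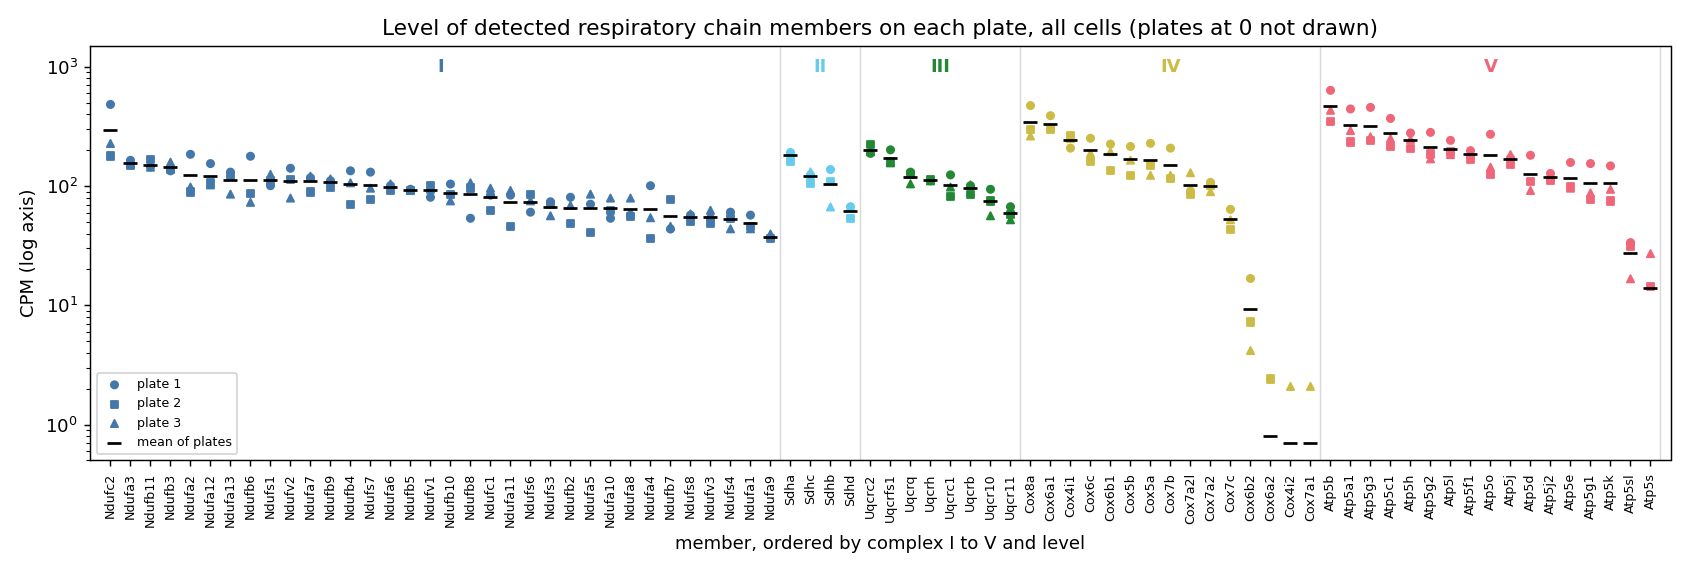
Level of detected members in all cells of each plate, in CPM on a log axis, with members ordered by complex and by mean; each symbol is 1 plate and the bar is the mean of the 3 plates, and plates at 0 are left out. Atp5b leads at 348 to 636 CPM, and the members at the bottom of complex IV are the tissue isoforms with 1 to 10 transcripts in all.

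The share of transcripts that came from the 83 members differed among clusters in the same order on the plates that held them. It was highest in the activated stem cell or progenitor-like cluster 4, at 1.68% (plate 1 alone, 5 cells). Next came the quiescent stem cell or astrocyte-like cluster 3, at 1.09% on plate 1 and 1.17% on plate 3. The oligodendrocyte-like clusters 0 and 2 pooled stood at 0.878, 0.917 and 0.953% on plates 1 to 3, and the microglia-like cluster 1 at 0.768, 0.601 and 0.524%. The clusters did not overlap in this order. Within plates, cluster 1 lay below clusters 0 and 2 by 0.284 ± 0.161 percentage points (SD, n = 3 plates), and cluster 3 lay above them by 0.211 ± 0.00317 (SD, n = 2 plates). Clusters 0 and 2 differed by 0.0311 ± 0.0313 (SD, n = 2 plates), which is no more than their spread. These shares are sums over the members and were not tested. Clusters came with the deposited cells and are taken to be drawn from the same expression values, so every comparison between them describes the clusters.

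By complex, cluster 4 on plate 1 lay above clusters 0 and 2 for each of the 5, and cluster 1 lay below clusters 0 and 2 on every plate for each of the 5. Cluster 3 lay above clusters 0 and 2 on both of its plates for complex V only, at 0.356 and 0.413% against 0.280 and 0.291% on plates 1 and 3. For complex IV it lay below on both, at 0.213 and 0.193% against 0.220 and 0.194%. Complex I was above on plate 1 and below on plate 3, at 0.393 and 0.305% against 0.247 and 0.337%. Complexes II and III were below on plate 1 and above on plate 3, at 0.0421 and 0.0807% against 0.0467 and 0.0442% for complex II and at 0.0834 and 0.175% against 0.0844 and 0.0861% for complex III. Complex V took 0.197% ± 0.0664 of the transcripts in cluster 1 and 0.279% ± 0.0122 in clusters 0 and 2 (SD, n = 3 plates). Complex IV took 0.131% ± 0.0230 and 0.200% ± 0.0173, and complex I 0.213% ± 0.0273 and 0.301% ± 0.0479. Complex III took 0.0542% ± 0.0189 and 0.0890% ± 0.00660, and complex II 0.0360% ± 0.00549 and 0.0460% ± 0.00156. On plate 1 complex I differed little between them, at 0.239% in cluster 1 and 0.247% in clusters 0 and 2. In the mean, the makeup of the whole was alike in cluster 1 and in clusters 0 and 2. Complex I gave 34.2% ± 5.71 and 32.8% ± 4.06 of the members' transcripts, and complex V 30.7% ± 5.11 and 30.5% ± 1.41 (SD, n = 3 plates). In cluster 3 the makeup differed between plates 1 and 3, with complex I at 36.2 and 26.1% and complex III at 7.67 and 15.0%. Complex V gave 36.7% in cluster 4.

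**Figure D2:**
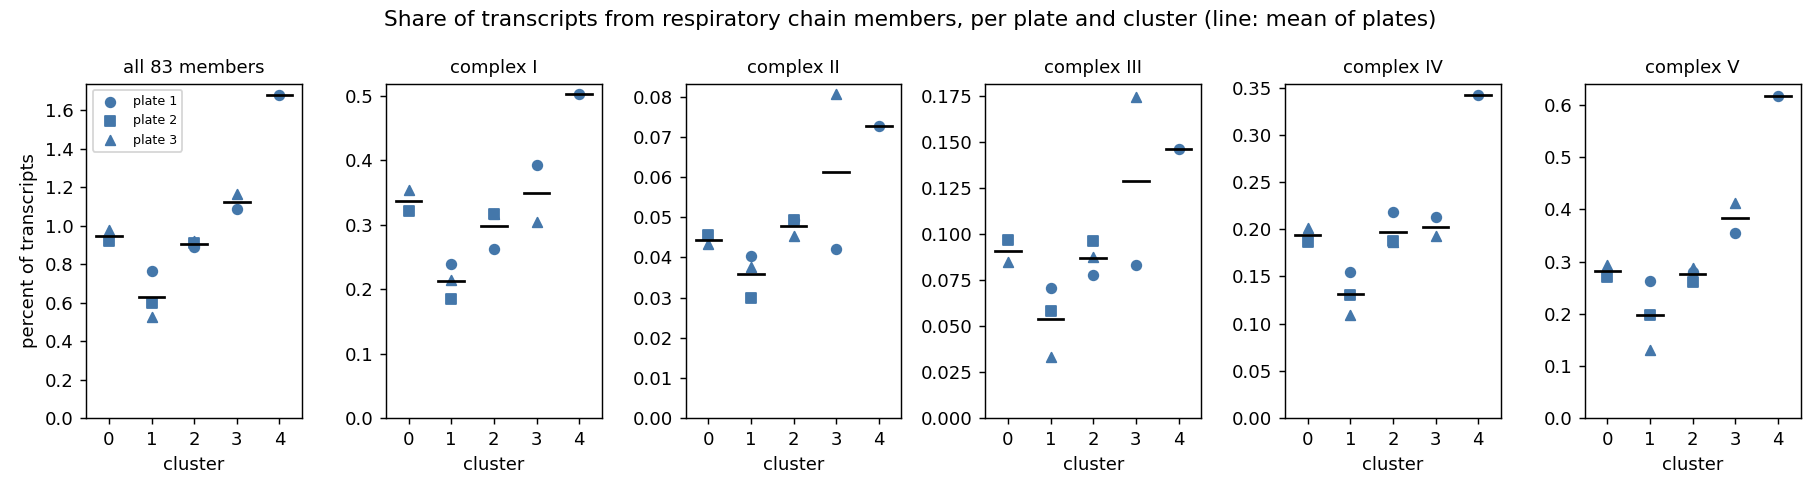
Percent of all transcripts that came from the 83 members and from each complex, by cluster; each symbol is the sum over the cells of a cluster on 1 plate with at least 3 cells, and the line is the mean of plates. Each vertical axis starts at 0 and has its own scale; cluster 1 lies lowest in the first panel, at 0.524 to 0.768%, and cluster 4, on 1 plate, highest at 1.68%.

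Single cells gave the same order with wide overlap. The median share per cell was 0.608% in cluster 1, 0.905% in cluster 0, 0.964% in cluster 2, 1.12% in cluster 3 and 1.60% in cluster 4. Cells of cluster 1 spanned 0.132 to 1.20% and those of cluster 4 spanned 1.16 to 2.25%. A median of 15 members was detected per cell in cluster 1, 46.5 in cluster 0, 41 in cluster 2, 31 in cluster 3 and 64.5 in cluster 4. Depth differed too, with median totals of 3455, 9530, 8615, 4192 and 17377 transcripts in the same order of clusters 1, 0, 2, 3 and 4. With each of the 149 cells thinned to 1000 identifiers, none being shallower, the medians were 6, 8, 7, 8 and 13.5 members.

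Gene by gene, 72 members had at least 50 transcripts in all cells. By the mean CPM over plates, cluster 1 was the lowest cluster for 42 of them and cluster 4, with 1 sum on plate 1, the highest for 44. The same counts over all genes were not made, so these are not read as particular to the members.

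In microglia-like cells against oligodendrocyte-like cells, 11 members fell and none rose. The 11 included the catalytic subunit Atp5b, the Rieske protein Uqcrfs1 and the Cox4i1 and Cox6a1 subunits of cytochrome oxidase. Of the 68 members that passed the filter on low counts, 16.2% were thus called lower by edgeR's quasi-likelihood test (Benjamini-Hochberg adjusted p under 0.05 over all 5329 genes tested). Of all genes, 15.7% were called lower and 13% higher, so that the members' share of calls was near the background. The median member had a log2 fold change of -0.93, against -0.20 for all genes, and 63 of 68 were negative; the 5 positive members were not called. With size factors by DESeq2's method the medians were -0.67 and 0.01, and the gap between members and all genes, -0.73 at first, was -0.68. Called members came from complexes I (3 of 31 tested), III (2 of 7), IV (3 of 11) and V (3 of 15), and none from complex II (0 of 4, with log2 fold changes from -0.75 to -0.62). In complex IV, Cox7c passed the filter only through 1 sum of cluster 2, as given below.

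The calls rest on plates 2 and 3 together. Without plate 2, or without plate 3, 0 members were called by edgeR, with 3 and 1 at an unadjusted p under 0.05, while 13 were called without plate 1. DESeq2 called 5: Atp5b, Cox6a1, Cox7c, Ndufa3 and Ndufb6. Clusters 0 and 2 together had 4 cells on plate 1. The single cell of cluster 0 there was left out of the fit, which used the 3 cells of cluster 2, whereas the levels printed for clusters 0 and 2 on plate 1 pool all 4. In cluster 2 alone on plate 1, Atp5b stood at 247 CPM in place of 400.3, and each of the 11 called members lay above its values in cluster 1. On the pooled cells of plate 1, 37 of the 72 members with at least 50 transcripts were lower in cluster 1 and 35 higher, against 56 and 57 lower on plates 2 and 3. Shares of all genes were not computed for these counts on single plates. Plate sums of cluster 1 lay wholly below those of clusters 0 and 2 for 19 of the 72 members (25.7% of all genes of that depth did so) and wholly above for 1 (15.9% of all genes).

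In complex V, Atp5b stood at 101, 190.1 and 126 CPM in cluster 1 on plates 1 to 3, and at 400.3, 379 and 444 CPM in clusters 0 and 2. Every plate of cluster 1 lay below every plate of the oligodendrocyte-like cells. Its log2 fold change was -1.66 (SE 0.51, edgeR adjusted p = 0.0053). Atp5o, a subunit of the peripheral stalk, stood at 67.4, 27.2 and 126 CPM against 178, 141 and 148 CPM (log2 fold change -1.77). Atp5g2 stood at 202, 54.3 and 83.9 CPM against 311, 217 and 180.5 CPM, an overlap between plate 1 of cluster 1 and plate 3 of the other (log2 fold change -1.66). The other subunit c genes did not pass. Atp5g1 stood at 101, 0 and 0 CPM against 66.7, 91.7 and 94.8 CPM, and Atp5g3 at 404, 163 and 168 CPM against 401, 235 and 255 CPM.

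In complex IV, Cox6a1 stood at 236, 136 and 0 CPM in cluster 1 against 445, 330.3 and 336 CPM, with no overlap (log2 fold change -1.82, SE 0.54, edgeR adjusted p = 0.00436). Cox4i1, the subunit at which ATP is known to slow the oxidase, stood at 33.7, 136 and 209.7 CPM against 267, 303 and 259 CPM (log2 fold change -1.48). Cox7c had 0 transcripts in all 36 cells of cluster 1, against 88.9, 55 and 55.5 CPM. It passed the filter on low counts through 1 sum only, that of cluster 2 on plate 1, at 123 CPM from 3 transcripts. That sum is on the side where Cox7c is high, so its call is not read as support. Without plate 1 it was not among the called members. At the limit that 3 transcripts in the 127202 of cluster 1 would set, 23.6 CPM, Cox7c was at least 2.82-fold lower. Most of its 3′ end is shared with other genes, mostly pseudogenes by name (74.3% of its 40-base stretches), so its counts are uncertain. Cox7a2l, the supercomplex factor, stood at 236, 122 and 126 CPM in cluster 1 against 22.2, 79.5 and 132 CPM. These ranges overlapped and it was not called.

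In complex I the called members were accessory subunits, and in complex III they were the Rieske protein and a core protein. Ndufb6 had 0 transcripts in cluster 1 on each plate, against 133, 94.7 and 81 CPM, at least 4.37-fold lower by the same limit. Ndufb9 stood at 67.4, 13.6 and 0 CPM against 88.9, 113 and 123 CPM (log2 fold change -2.65). Ndufa3 stood at 67.4, 40.7 and 0 CPM against 200.04, 177 and 167 CPM (log2 fold change -2.50). None of these 3 overlapped between the groups. On plate 3 of cluster 1, however, 3 transcripts make 126 CPM, so the 0 there does not by itself set Ndufb9 apart. Uqcrfs1 stood at 67.4, 40.7 and 41.9 CPM against 222, 183 and 157 CPM (log2 fold change -2.16, SE 0.72, edgeR adjusted p = 0.0122), and its partner Uqcrc2 at 67.4, 136 and 41.9 CPM against 222, 229 and 201 CPM (log2 fold change -1.50). Both lay apart from the oligodendrocyte-like cells on every plate. The other core protein, Uqcrc1, had 269.5, 95 and 0 CPM in cluster 1 against 88.9, 79.5 and 76.3 CPM, and with Ndufs4, at 168, 54.3 and 41.9 CPM against 0, 55 and 39.3 CPM, it had the highest log2 fold changes, 0.45 and 0.62. Neither was called.

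Complex II stood out by none of these tests. Sdha had 202, 122 and 126 CPM in cluster 1 against 178, 177 and 183 CPM, Sdhb 135, 13.6 and 126 CPM against 88.9, 135 and 55.5 CPM. Sdhc had 33.7, 122 and 83.9 CPM against 199.998, 107 and 137 CPM, and Sdhd 33.7, 40.7 and 41.9 CPM against 0, 51.9 and 67.1 CPM. All 4 overlapped between the groups. Cluster 1 held 606 to 4993 CPM of the 7 oligodendrocyte markers, whose part in these values was not tested.

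**Figure D3:**
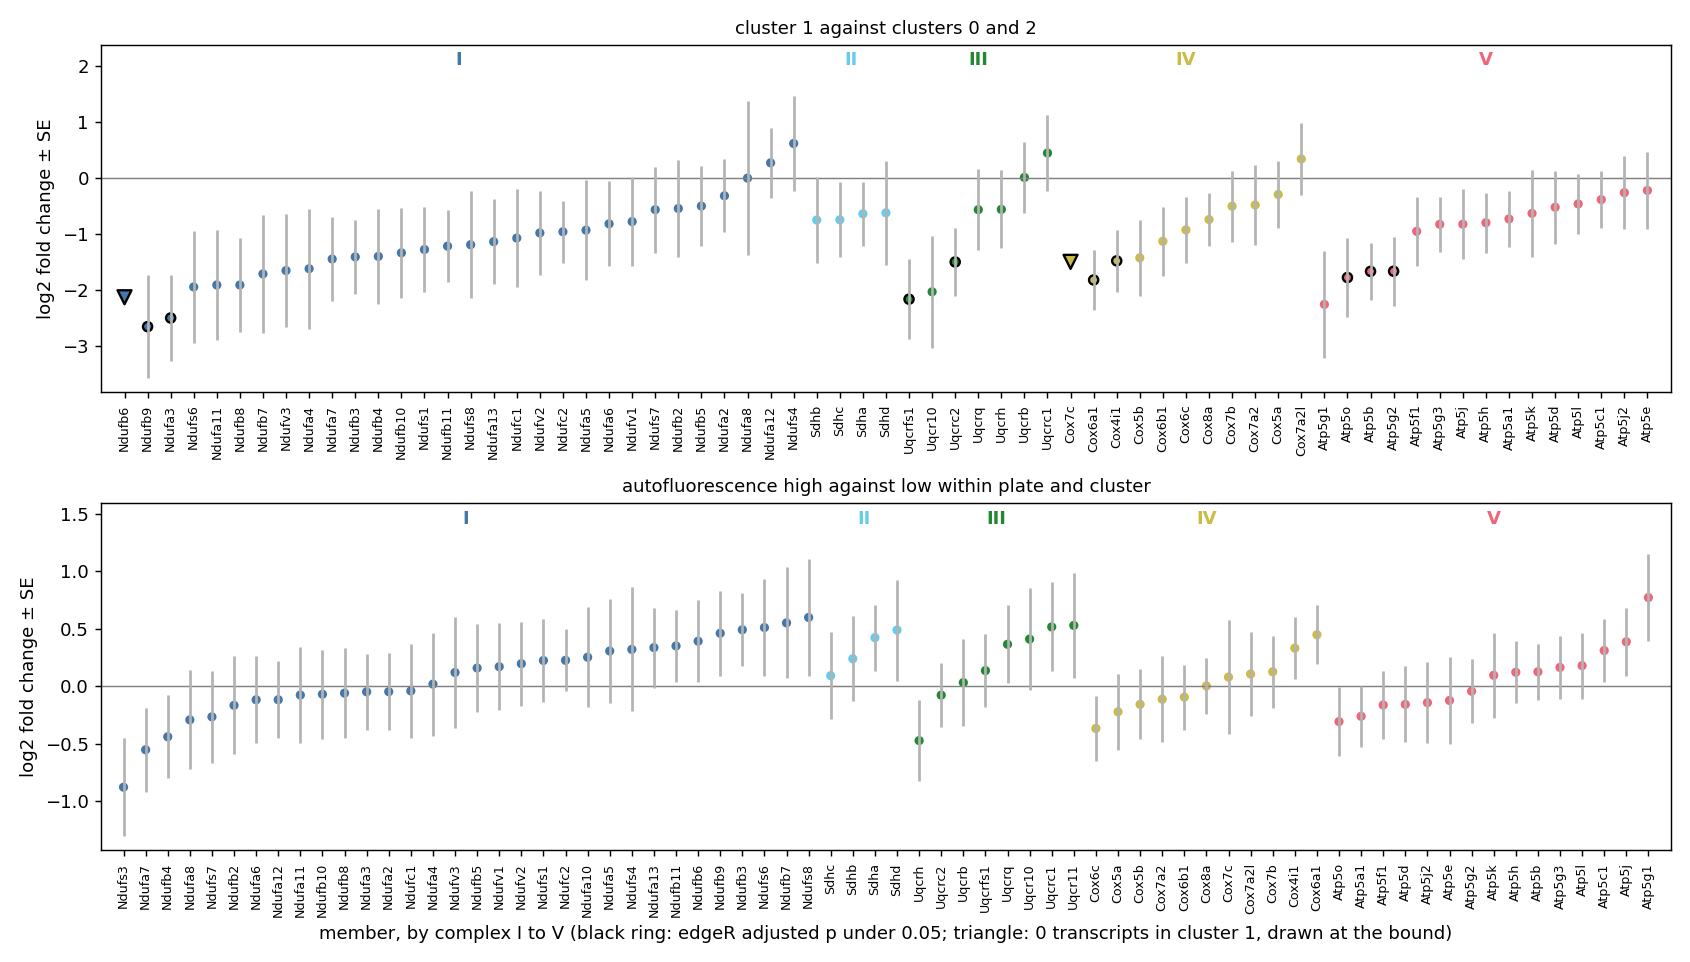
Log2 fold change of tested members with the standard error (edgeR), by complex, in microglia-like against oligodendrocyte-like cells (upper panel) and in cells of high against low autofluorescence within each plate and cluster (lower panel); black rings mark adjusted p under 0.05 and triangles mark the members with 0 transcripts in cluster 1, drawn at their bound of 4.37-fold (Ndufb6) and 2.82-fold (Cox7c). In the upper panel 11 members are ringed and all lie below 0; in the lower panel none is ringed, and the vertical scales differ.

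Quiescent stem cell or astrocyte-like cells had more of 2 members than microglia-like cells. Atp5b stood at 566 and 538 CPM in cluster 3 on plates 1 and 3, against 101, 190.1 and 126 CPM in cluster 1 (log2 fold change 2.16, SE 0.63, edgeR adjusted p = 0.00837). Ndufb6 stood at 237 and 0 CPM against 0 in cluster 1, at least 5.03-fold higher in the mean of the plates, although 1 of those 2 plates had none. These were 2 of 68 members, or 2.94%, where 6.77% of all genes were called higher and 5.78% lower. The median member had a log2 fold change of 1.06 against 0.03 for all genes, and 60 of 68 were positive. The lowest were Cox7a2l at -1.29 and Cox7a2 at -0.99, neither called. Without plate 1 Atp5b and Ndufb6 both lost their calls, with Atp5b at 1.34, and 1 other member, Uqcrc1, was called. Cluster 3 had 2 sums, on plates 1 and 3, and leaving out either leaves it with 1 sum that is assumed to vary like the other groups. Ndufb6 also lost its call without plate 2 and with DESeq2. Plate sums of cluster 3 lay wholly above those of cluster 1 for 25 of the 72 members with at least 50 transcripts (20.1% of all genes of that depth) and wholly below for 1 (18.2% of all genes).

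Against oligodendrocyte-like cells, cluster 3 showed no called member among 68 by edgeR or DESeq2, with 2 at an unadjusted p under 0.05, where 6.79% of all genes were called higher and 6.53% lower. The median member was at -0.03 and all genes at -0.08. With DESeq2's size factors in edgeR they were at 0.17 and 0.10. Without plates 1, 2 and 3 in turn, the members' median was -0.43, 0.39 and 0.61, and that of all genes -1.01, 0.18 and 0.63. The sign of the median thus turns with the scaling and with the plates kept. Uqcrc1 was highest, at 122 and 628 CPM in cluster 3 against 76.3 to 88.9 CPM (log2 fold change 1.69, edgeR adjusted p = 0.101), and most of its excess came from plate 3 with 4 cells. Ndufs7, a core subunit that carries an iron-sulfur centre, followed at 1.16. Atp5g2, at 145 and 44.8 CPM, and Ndufb8, at 38.2 and 89.7 CPM, were lowest with log2 fold changes of -1.60 and -1.47. In complex II the values were -0.71 for Sdhc, 0.25 for Sdha, 0.37 for Sdhd and 0.62 for Sdhb. Without plate 1, 2 members were called, Uqcrc1 higher and Cox6c lower, but cluster 3 was then 1 sum of 4 cells with no replicate, assumed to vary like the other groups. Plate sums of cluster 3 lay wholly above those of clusters 0 and 2 for 15 of the 72 members with at least 50 transcripts (19% of all genes of that depth) and wholly below for 7 (27.4% of all genes).

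Between the oligodendrocyte-like clusters no member passed the test. Of 68 members edgeR called 0 and DESeq2 0 in cluster 0 against cluster 2, with 0 at an unadjusted p under 0.05 in edgeR, where 0.131% of all genes were called higher and 0.0375% lower. The members' median was 0.11 and that of all genes 0.08. Ndufs4 (1.07) and Ndufa5 (1.05) were highest, and Sdhb (-0.72) was among the lowest. The median standard error of a member was 0.66, so a change of that size would not have been called.

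The cells that resemble activated stem cells or progenitors entered the fit as 1 sum, of 5 cells on plate 1. That sum has no replicate, and the test assumes that it varies like the sums of the other groups, so the p-values do not measure a spread between plates of cluster 4. With that limit, cluster 3 showed no called member of 68 against cluster 4 by edgeR or DESeq2, with 9 at an unadjusted p under 0.05 in edgeR, where 3.4% of all genes were called higher and 5.85% lower (181 and 312 genes, or 353 and 356 with DESeq2's size factors in edgeR). The median member was at -0.76 and all genes at -0.18, and 55 of 68 members were negative. The size of this shift depended on the setting. Without plate 3 the medians were -0.17 for members and 0.21 for all genes, with 28 of 66 members positive. They were -0.50 and 0.09 without plate 2, and -0.35 and 0.02 with no filter on low counts. On plate 1 itself 56 of the 72 members with at least 50 transcripts were lower in cluster 3, and the share of all genes that were lower there was not computed. Atp5b stood at 566 CPM in cluster 3 and 1024 CPM in cluster 4 on that plate, Ndufc2 at 436 and 783 CPM, and Cox6a1 at 252 and 609 CPM. The lowest log2 fold changes were those of Uqcrb (-2.57, edgeR adjusted p = 0.103) and Cox7a2 (-2.38), and the highest those of Ndufa5 (1.20) and Ndufb7 (1.04). In complex II they were -0.04 for Sdha, -0.40 for Sdhb, -1.70 for Sdhc and -1.86 for Sdhd. Cells of cluster 4 also had 7.49% of their transcripts from cytosolic ribosomal protein genes, against 1.38% in cluster 3 on plate 1. Depth and cluster cannot be told apart here, and cluster 4 was summed on no second plate.

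Autofluorescence was read apart from the transcripts and so gives a comparison that the clustering did not shape. Cells above the median of their plate had a lower share of respiratory chain transcripts than the rest on all 3 plates, 0.970 against 1.38%, 0.809 against 0.925% and 0.911 against 0.973%. The difference was -0.196 ± 0.187 percentage points (SD, n = 3 plates). The bright cells included 32 of the 36 microglia-like cells and 0 of the 6 of cluster 4. No member was called among the 70 tested by edgeR or DESeq2, with 3 at an unadjusted p under 0.05 in edgeR, where 3.89% of all genes were called higher and 0.134% lower. The median member was at -0.24 and all genes at -0.04. All 6 microglia markers were called higher in the bright cells.

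Ndufb4, an accessory subunit of complex I, was lowest, at 63.9, 60.7 and 72.2 CPM in bright cells and 186, 78.7 and 144 CPM in dim cells (log2 fold change -0.94, SE 0.42, edgeR adjusted p = 0.368). Atp5o followed at 136, 116 and 92.2 CPM against 372, 134 and 201 CPM (-0.91, edgeR adjusted p = 0.304). Both were lower in bright cells on each plate, though the plates overlapped for Atp5o. The highest were Uqcrc1 and Ndufa10, both at 0.54. Among complex II, Sdha was at 0.15, Sdhb at -0.14, Sdhc at -0.23 and Sdhd at -0.28. With cluster 1 left out, 0 of 68 members were called by edgeR or DESeq2 (1 at an unadjusted p under 0.05 in edgeR; all genes 0.343% higher and 0.0343% lower), with a median of -0.15. Ndufb4 (-0.93) and Ndufb10 (-0.79) were then lowest and Ndufb7 (0.73) and Ndufb3 (0.68) highest.

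Within clusters no member passed the test between bright and dim cells. With each cell set against the median of its own plate and cluster, the share was 1.01% ± 0.177 in bright and 1.00% ± 0.182 in dim cells (SD, n = 3 plates). The difference within plates was 0.00818 ± 0.0377 percentage points, higher in bright cells on 1 of 3 plates. Of 71 members, 0 were called by edgeR and 0 by DESeq2, 0 had an unadjusted p under 0.05 in edgeR, and 0% of all 3540 genes were called in either direction, with 186 genes at an unadjusted p under 0.05. The median member was at 0.12 and all genes at 0.02. The median standard error was 0.36, which limits what could be called for single members.

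Ndufs3, a core subunit of the arm of complex I outside the membrane, was lowest at 48.9, 54.2 and 37.7 CPM in bright cells against 97.1, 88.5 and 85.8 CPM in dim cells. All plates of bright cells lay below all plates of dim cells, but the log2 fold change of -0.88 had an SE of 0.43 and an edgeR adjusted p of 0.949. Its 3′ end shares 58.2% of its 40-base stretches with other genes. Ndufa7 was next at 62.9, 81.2 and 109.6 CPM against 168, 98.9 and 139 CPM (-0.55). Atp5g1 was highest at 217, 90.3 and 95.9 CPM against 97.2, 62.5 and 75.1 CPM (0.77, SE 0.37 and edgeR adjusted p 0.949), followed by Ndufs8 at 0.60. The 3′ end of Atp5g1 in its longest transcript shares 27.2% of its 40-base stretches with other genes. Of the 72 members with at least 50 transcripts, 12 were higher and 9 lower in bright cells on all 3 plates. The share of all genes of that depth that did so was not computed, so these counts are not read as a result about the members. The most abundant member, Atp5b, stood at 594, 352 and 466 CPM in bright cells and 675, 344 and 381 CPM in dim cells. The 4 subunits of complex II lay between 0.09 (Sdhc) and 0.49 (Sdhd).

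In clusters 0 and 2 alone, 0 of 58 members were called by edgeR or DESeq2, 0 had an unadjusted p under 0.05 in edgeR, and 0% of all genes were called. The median was -0.01, with Cox6c (-0.79) and Ndufa7 (-0.63) lowest and Ndufb3 (0.61) and Uqcr10 (0.58) highest, and the bright sum of plate 1 was a single cell. In cluster 1 no member passed the filter, and the share was 0.642% ± 0.0747 in bright and 0.621% ± 0.156 in dim cells (SD, n = 3 plates). Across cells of 1 cluster on 1 plate, in 8 such groups of at least 9 cells, Spearman's rho between autofluorescence and the members' share ran from -0.35 to 0.39. The same cells' rho between autofluorescence and total transcripts ran from -0.38 to 0.79. The points of a group share a plate and their members' share has the total as its denominator, so these are descriptions.

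**Figure D4:**
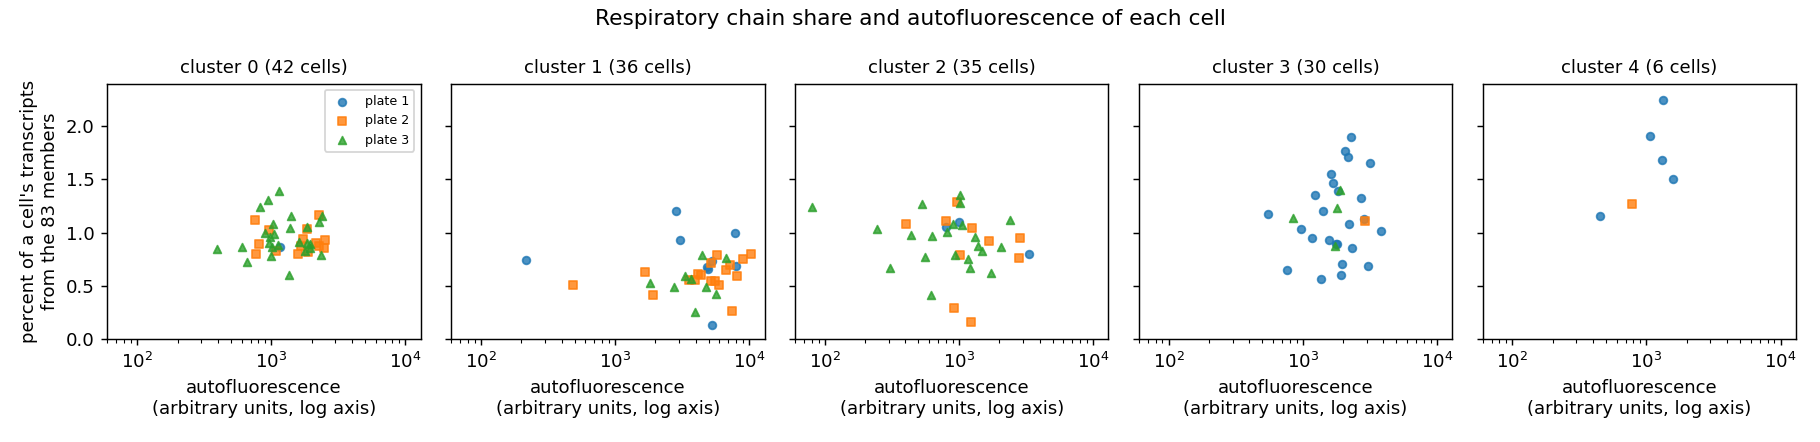
Percent of a cell's transcripts that came from the 83 members against its autofluorescence in arbitrary units on a log axis, by cluster; each symbol is 1 cell and its shape and colour give the plate. Cells of cluster 1 lie to the right and low, with a median of 0.608%, and within no panel do the points follow one line.

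Genes that serve the chain without being matched by its names were counted from lists. Among cofactors and subunits outside the rule, none of 8 tested was called in cluster 1 against clusters 0 and 2 (median -0.95). Cytochrome c, Cycs, the carrier between complexes III and IV, stood at 101, 67.9 and 41.9 CPM against 88.9, 144 and 183 CPM (log2 fold change -1.56). Cyc1, the cytochrome of complex III, was at -0.57, Ndufab1, the acyl carrier protein of complex I, at -0.99, and Atpif1, the inhibitor of the synthase, at -0.12. In cluster 3, Chchd10, a protein of the space between the mitochondrial membranes, was higher than in clusters 0 and 2, 1 and 4, the 1 called member of the list in each. It stood at 229 and 135 CPM in cluster 3 and at 0 to 6.11 CPM in clusters 0 and 2, with 0 transcripts in clusters 1 and 4. The call against cluster 4 (edgeR adjusted p = 0.0496) rests on its 1 sum, which has no replicate. Against clusters 1 and 4 the calls were lost without plate 2 or 3, and against clusters 0 and 2 without plate 3. Against clusters 0 and 2 the call was also lost with no filter on low counts. Chchd10 did not pass the filter without plate 1, and DESeq2 gave it no adjusted p.

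Carriers moved in opposite directions. Of 9 genes tested in cluster 1 against clusters 0 and 2, Ucp2, a relative of the uncoupling protein that is abundant in immune cells, rose from 156, 15.3 and 18.5 CPM to 1045, 720.2 and 629 CPM. Slc25a4, an exchanger of ADP and ATP, fell from 400.5, 400.6 and 514 CPM to 0, 81.5 and 41.9 CPM. On plate 1 in cluster 2 alone, as fitted, Slc25a4 stood at 123 CPM and Ucp2 at 247 CPM. The paralogue of Slc25a4, Slc25a5, stood at 303, 204 and 252 CPM against 333, 199 and 157 CPM and was not called (log2 fold change -0.27). Mpc1 and Mpc2, which form the pyruvate carrier, also fell. Ucp2 and Slc25a4 were called whichever plate was left out and by DESeq2, while Mpc1 and Mpc2 lost their calls without plate 2 and without plate 3, and Mpc1 also with DESeq2 and with at least 10 cells per sum. Against cluster 1, cluster 3 was called higher for Slc25a4 and Mpc2 and lower for Ucp2. The call of Mpc2 was lost without any 1 plate, with DESeq2 and with no filter, that of Slc25a4 without plate 1 and that of Ucp2 without plate 3.

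In the citrate cycle, citrate synthase Cs fell in cluster 1 against clusters 0 and 2, where the median of the 11 genes tested was -1.15, and it was higher in cluster 3 than in cluster 1. In the first comparison Cs lost its call without plate 2 or 3 and with DESeq2, and in the second without plate 1. Of 9 assembly factors and 25 mitochondrial ribosomal proteins tested in cluster 1 against clusters 0 and 2, none was called, with medians of 0.75 and -0.53. Of the regulators 2 were tested and none was called, Tfam, which packs and transcribes mitochondrial DNA, being at 0.23. Ppargc1a, a coactivator that drives mitochondrial growth, had 15 transcripts in all cells of cluster 3, 5 in clusters 0 and 2 and 0 in clusters 1 and 4. In cluster 3 it stood at 99.4 CPM on plate 1 and 0 on plate 3, and it was not tested. Of 74 genes of the cytosolic ribosome list tested, 11 were called higher in cluster 1, close to the 13% of all genes called higher in that comparison, among them Rpl12, Rps29, Rps12 and Rplp1 and also Rps6ka1, a kinase taken in by its name, and none lower. That list made up 3.52% ± 0.879 of the transcripts of cluster 1 and 1.76% ± 0.0973 of those of clusters 0 and 2 (SD, n = 3 plates), the reverse of the order of the respiratory chain. None of the genes of these lists was called for autofluorescence within plate and cluster.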

How the data were processed

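Transcripts of single cells on 3 plates were analysed by plate, cluster and autofluorescence. The deposited table holds expected counts: the authors' estimated counts of transcripts per gene and cell, in which molecular identifiers had been corrected for collisions. With 4096 identifiers, 100% of the values above 0 inverted to whole numbers (tolerance 1e-06). BWA 0.7.15, R 4.2.0, Seurat 4.1.1, hg19 and mm10 are named, without roles, per the submitters' processing notes. The cell filter: not given in the sources used here. Autofluorescence was deposited as an intensity per cell in arbitrary units, and the total signal per cell as the sum of its deposited transcripts. Plates take their number from the last digit of the library name, matched to the sample titles.

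Estimated transcripts were summed over the cells of a plate and cluster (at least 3 cells, 11 sums) or of a plate and autofluorescence class (6 sums) and rounded. They were tested with edgeR 4.0.16 in R 4.3.3 by quasi-likelihood with TMM scaling, the filter filterByExpr and the plate as a block. Adjusted p-values (Benjamini-Hochberg, threshold 0.05) run over all genes tested. Plates are paired because both groups come from the same day and animals. DESeq2 1.42.0 was an alternative, as were other scalings, filters and plate sets. The code was tested on simulated data. No doublet caller was run, since wells were filled by sorting. Shares are percentages of deposited transcripts. Totals of 297573 to 478504 transcripts per plate limit the precision, and intervals from counts cover counting error only.

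The members, lists and tests were chosen with earlier results of these data known. Genes are named by rule: the 3 most abundant members of each complex, sets of isoforms, complex II, called members, the 2 highest and 2 lowest by log2 fold change in each comparison, and called genes of the lists up to 5. The levels of Ndufc2 and Cox6a1 in cluster 4 and the genes set beside Atp5g2, Sdha and Cs were added for context after their values were seen. The 13 protein-coding transcripts of the mitochondrial genome are not analysed here, and single values of 1 member and 1 gene of the lists are not reported here.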

Additional observations from a re-analysis of the deposited data

How the results depend on the processing

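Across the alternatives, 101 of 118 alternative values of the comparisons stayed within 1.5 times the first count of called members or within the spread of plates, and none turned direction among called members. A count of 0 that stayed at 0 was taken as unchanged, also where no member passed the filter. The total of 101 is therefore no measure of how stable the calls are. In cluster 1 against clusters 0 and 2, where 11 members were called, DESeq2 called 5, and leaving out a plate gave 0 to 13. The fit with no replicate block called 14, all 11 among them. In cluster 3 against clusters 0 and 2, where 0 were called, DESeq2's size factors in edgeR gave 1, the fit with no replicate block 1, and leaving out a plate 0 to 2. In cluster 3 against cluster 1, where 2 were called, the same settings gave 4 and 5, DESeq2 gave 1, and leaving out a plate 1 to 2. In cluster 3 against cluster 4, where 0 were called, DESeq2's size factors in edgeR and the fit with no replicate block each gave 1. No alternative called a member for autofluorescence in any set of cells. The excess share of cluster 3 over clusters 0 and 2, 0.211 percentage points, became 0.185 as a median over cells, 0.224 without mitochondrial ribosomal and transfer RNA in the total and 0.198 without Atp5b. That of cluster 0 over cluster 2, 0.0311, became -0.0504 as a median over cells. The deficit of cluster 1 against clusters 0 and 2 lay between 0.213 and 0.372 percentage points when a plate was left out. The causes were not tested. Fits with at least 10 cells per sum could not be made for clusters 3 and 4, nor cluster 3 against cluster 4 without plate 1. Over all cells of cluster 1 pooled, a count of 0 allows up to 23.6 CPM. On a single plate the limit is higher, since cluster 1 had 23847 transcripts on plate 3, where 3 transcripts make 126 CPM. A single transcript in cluster 1 is 33.7, 13.6 and 41.9 CPM on plates 1, 2 and 3.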

Other observations

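Several members have 3′ ends that other genes repeat. In the last 300 bases of their longest coding transcript (GENCODE M21), 26 of the 83 members share at least 1 stretch of 40 bases with another gene, and 12 share over 20% of their stretches. Those 12 had a median level of 148 CPM and the other 71 a median of 104 CPM. Ndufs5, an accessory subunit of complex I, shares 56.3% of its stretches with BC002163. Both genes were at 0 in all 149 cells. Atp5l shares 71.3%, Atp5g2 47.5%, Atp5h 46.4%, Uqcrb 42.9%, Cox6c 42.5% and Atp5o 35.6%. Atp5g1 shares 27.2%, Ndufb11 23.8% and Ndufb3 22.2%, so the counts of all these members are uncertain too. Whether shared reads set these levels was not tested.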
